A study of Mus musculus with 9 samples.

Results

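Macrophages sorted from mouse liver were compared between 48 h and 24 h after partial hepatectomy (PHx), in which lobes of the liver are removed and the remnant regrows. The comparison was set by the treatment labels and took 6 of the 9 libraries of the series, 3 at each time, and all 18577 of 56691 genes that passed a filter on low counts. The labels name the time after PHx and no genotype or other agent; per the study's methods the mice were males of the C57BL/6 strain, 6 to 8 weeks old. Both times share the operation, the collagenase perfusion of the liver and the sort of non-parenchymal cells by F4/80 and CD11b, 2 surface proteins of macrophages, on a BD Aria III. F4/80 and CD11b do not separate resident macrophages from monocytes that have entered the liver, and it is not stated whether each library came from its own mouse. The p-values therefore cover the spread from library to library, and that spread may be technical.

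Kupffer cells line the sinusoids of the liver, where they clear particles, iron and dying cells, and blood monocytes that enter after injury become macrophages there too. Endotoxin and complement reach them after PHx. NF-kappaB is a transcription factor family held back by the inhibitor encoded by Nfkbia. Endotoxin acts through receptors such as CD14 and the Toll-like receptors on NF-kappaB and on immediate-early factors of the FOS, JUN and EGR families. The cytokines TNF and IL-6 made in this way prime hepatocytes to divide. Levels are in CPM, a gene's count scaled to a common library total. The values of replicates 1, 2 and 3 of 24 h, or their range, stand before the word against and those of 48 h after it. The log2 fold change (log2FC, ± SE) is 48 h over 24 h, so that a negative value means a lower level at 48 h.

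The libraries of 48 h stood apart from those of 24 h in several ways. Counts summed to 56062878 to 61243389 per library at 24 h and 53297943 to 67951168 at 48 h (exact permutation test, two-sided, p = 0.9). Mitochondrially encoded genes took 2.37%, 2.89% and 3.72% of the counts at 24 h and 7.06%, 17.9% and 14% at 48 h, and 23240 to 23452 genes had a count at 24 h against 20549 to 22986 at 48 h. Neither measure overlapped between the times (p = 0.1 for each, the smallest an exact permutation test of 3 against 3 can give). Replicates also differed more at 48 h, with a biological coefficient of variation of 0.723 against 0.380, and the SD of log2 CPM was larger at 48 h for 13037 genes (70.2%). Replicate 1 of 48 h was nearest to the 24 h libraries on the first principal component (47.4% of the variance), and replicates 2 and 3 of 48 h lay at opposite ends of the second (22.7%).

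**Figure D1:**
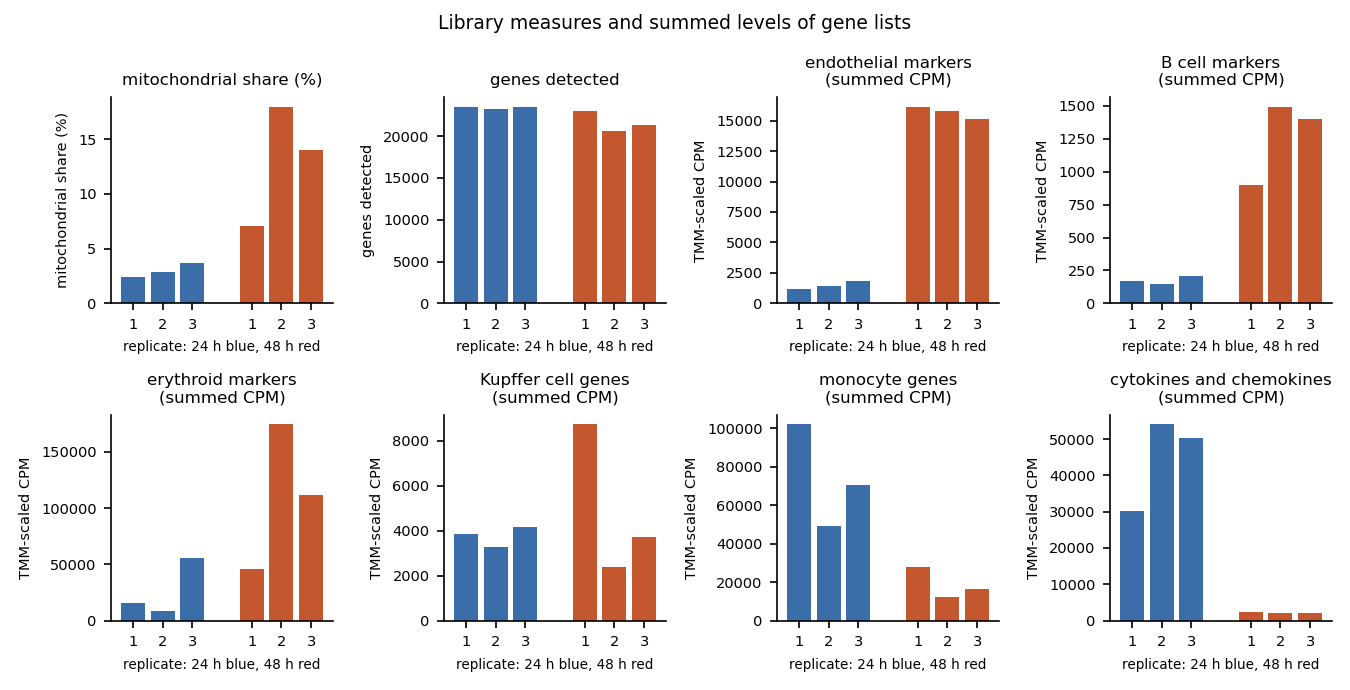
Each bar is 1 library, blue at 24 h and red at 48 h; the upper left panels show the share of counts from mitochondrially encoded genes and the number of genes with a count, and the others the summed TMM-scaled CPM of the tested members of a gene list. Endothelial and B cell markers were higher and cytokine and monocyte genes lower in every 48 h library, and the Kupffer cell sum was highest in replicate 1 of 48 h (8718 CPM).

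The macrophage label was checked against defining markers, looked up for this purpose. Adgre1, which encodes F4/80, measured 130.5, 128 and 162 against 238, 65.1 and 112 CPM. Csf1r, the receptor of the growth factor CSF1, measured 528, 354 and 415 against 692, 225 and 279 CPM. Both overlapped between the times and did not pass the test (adjusted p = 0.983 and 0.891). Itgam, which encodes CD11b, fell from 64.4–101 to 11.3–21.6 CPM (log2FC -2.26 ± 0.30, adjusted p = 0.00193). An exon of Itgam overlaps the predicted gene Gm49368 on the same strand, so reads may be divided between them, and their summed level ran from 147 to 207 CPM at 24 h and from 11.8 to 21.6 CPM at 48 h. Spi1, the lineage factor PU.1, fell from 907–1186 to 356–432 CPM (log2FC -1.37 ± 0.21, adjusted p = 0.00395). Lyz2, the lysozyme of myeloid cells, fell from 32800.2–79009.6 to 9794–24083 CPM (log2FC -1.81 ± 0.46, adjusted p = 0.0324). The call of Lyz2 was lost without replicate 1 or 3 of 24 h or replicate 2 or 3 of 48 h (adjusted p up to 0.193). Of the 8 defining markers 4 fell (Itgam, Lyz2, Spi1 and the Fc receptor gene Fcgr1), Mertk rose, and Cd68 did not pass either (adjusted p = 0.0501), so that macrophage genes were present in all 6 libraries and several were lower in all 3 of 48 h. In bulk RNA such as this, fewer cells of a type and less RNA per cell cannot be told apart.

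Across all genes, 1754 were higher at 48 h and 1322 lower (adjusted p under 0.05, edgeR quasi-likelihood test with Benjamini-Hochberg adjustment), which is 9.44% and 7.12% of the genes tested. The median log2FC was 0.09 over all genes, 2.05 over the genes that rose and -1.51 over those that fell. The change was at least 4-fold for 915 genes that rose and 454 that fell. Of the 3076 genes called, 3071 showed no overlap between the times. Over all genes, 19.4% had all 48 h values above those of 24 h, and 17.9% below. Without a library of 24 h the counts were lower, 897 genes higher and 668 lower without replicate 1, 938 and 699 without replicate 2, and 990 and 654 without replicate 3.

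**Figure D2:**
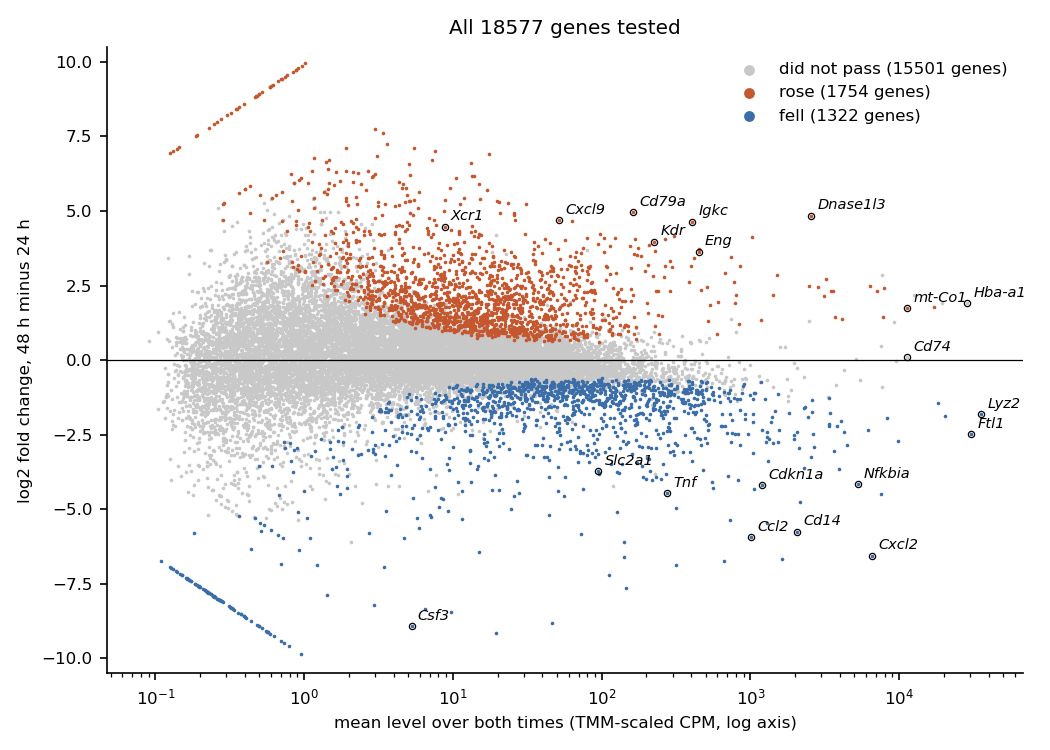
Each point is a gene, with its mean TMM-scaled CPM over both times on the x axis (log axis) and its log2 fold change (48 h minus 24 h) on the y axis, red where it rose, blue where it fell and grey where it did not pass. The 14 genes beyond 10 on the log2 scale are left out; the straight lines of points at the upper and lower left are genes with a count of 0 in all libraries of 1 time.

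Most cytokines and chemokines fell, and theirs was the list with the lowest median of the 48 gene lists described. Of 37 tested, 23 fell and 3 rose, beside 7.12% and 9.44% of all genes, and the median log2FC was -3.26 against 0.09 over all genes. Their summed level was 30103, 54029 and 50364 CPM at 24 h and 2353, 2190 and 2072 CPM at 48 h. Cxcl2, which recruits neutrophils through CXCR2, was the most abundant and measured 10073, 13508 and 15301 against 179, 161 and 75.4 CPM (log2FC -6.55 ± 0.46, adjusted p = 0.000225). Every 48 h library lay far below every 24 h library. Its neighbours Cxcl1 (146–332 against 0.828–2.05 CPM) and Cxcl3 (179–355 against 0–2.35 CPM), ligands of the same receptor, moved the same way (log2FC -7.21 and log2FC -7.62). Among the monocyte attractants, Ccl2, the ligand of CCR2, measured 1201, 2538 and 2249.7 against 61.5, 21.7 and 15.6 CPM (log2FC -5.92 ± 0.64, adjusted p = 0.000718). Ccl7 fell from 599–1902 to 2.40–19.2 CPM. Ccl4, another chemokine, measured 1736, 2499 and 3359.5 against 61.8, 45.6 and 64.3 CPM (log2FC -5.47 ± 0.35, adjusted p = 0.0002).

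Of the cytokines that prime hepatocytes, Tnf measured 378, 577 and 631 against 29.7, 19.5 and 23.3 CPM (log2FC -4.45 ± 0.30, adjusted p = 0.000225). Il6 measured 28.6, 58.4 and 55.2 against 0.760, 0.816 and 2.95 CPM (log2FC -4.98 ± 0.62, adjusted p = 0.00139). Il1b, the inflammasome cytokine, fell from 1984–2869 to 113–352 CPM (log2FC -3.38 ± 0.43, adjusted p = 0.00151), with replicate 2 the highest at 48 h. Csf3, the granulocyte growth factor G-CSF, was at 3.07, 11.3 and 17.2 against 0, 0.0640 and 0 CPM, so that a fold rests on very few counts at 48 h (log2FC -8.92). The call of Csf3 was lost with limma, with or without sample quality weights. Il10, an anti-inflammatory cytokine, fell as well, from 13.7–33.2 to 0.160–1.51 CPM (log2FC -4.39 ± 0.77, adjusted p = 0.00656). The 3 members that rose were Cxcl9, Ccl5 and Cxcl16, all attractants of lymphocytes. Cxcl9, a ligand of CXCR3 induced by interferon-gamma, measured 3.55, 4.47 and 3.46 against 75.6, 91.0 and 132 CPM (log2FC 4.70 ± 0.29, adjusted p = 0.0002), with no overlap. Ccl5 measured 21.8, 41.6 and 57.0 against 160.3, 82.1 and 157 CPM (log2FC 1.73 ± 0.39, adjusted p = 0.0206). The calls of the falling members ranged from 23 to 24 when 1 library was left out, and those of the rising members from 1 to 3 (1 without replicate 1 or 2 of 24 h or replicate 3 of 48 h).

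**Figure D3:**
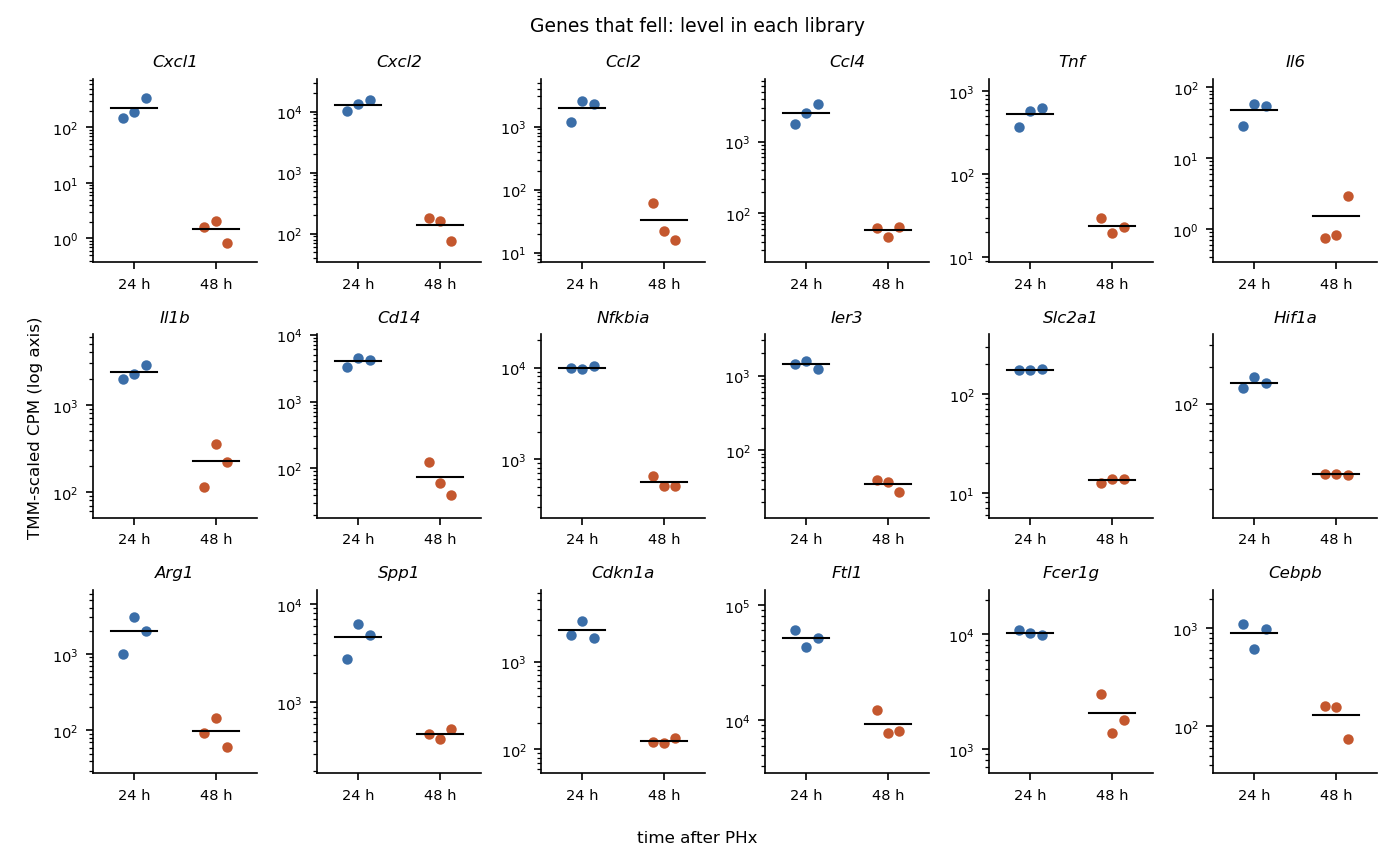
Level of 18 genes that fell, in TMM-scaled CPM on a log axis, in each of the 3 libraries at 24 h (blue) and at 48 h (red); the line is the mean. No gene shown overlaps between the times, from Slc2a1 (175 to 178 CPM at 24 h, 12.5 to 13.8 CPM at 48 h) to Cxcl2 (10073 to 15301 CPM, 75.4 to 179 CPM).

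The promoters of the 3 neighbouring chemokine genes are printed here because they fell together and hold the same site, beside that of Nfkbia, which is described next. Each sequence is the 130 bases before the start site in RefSeq (build GRCm38.p6), with matches to the NF-kappaB consensus of 10 bases in capitals, which were searched on both strands. The stretches are chr5:90891115-90891244 for Cxcl1, chr5:90903769-90903898 for Cxcl2 and chr5:90785971-90786100 for Cxcl3, all on the plus strand, and chr12:55492648-55492777 for Nfkbia on the minus strand.
Cxcl1: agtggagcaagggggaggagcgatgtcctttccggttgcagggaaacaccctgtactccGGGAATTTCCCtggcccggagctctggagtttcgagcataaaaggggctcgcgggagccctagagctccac
Cxcl2: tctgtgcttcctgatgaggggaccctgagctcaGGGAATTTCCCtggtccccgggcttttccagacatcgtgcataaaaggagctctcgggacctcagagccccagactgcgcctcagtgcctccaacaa
Cxcl3: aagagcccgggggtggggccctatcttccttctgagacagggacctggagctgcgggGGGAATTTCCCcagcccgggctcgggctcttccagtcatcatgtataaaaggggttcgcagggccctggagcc
Nfkbia: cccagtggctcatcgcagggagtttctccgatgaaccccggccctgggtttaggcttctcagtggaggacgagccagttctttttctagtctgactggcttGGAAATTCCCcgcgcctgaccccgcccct
In the 3 chemokine promoters the capitals are 2 overlapping matches, 1 on each strand, over the same 11 bases, and they begin 71, 97 and 73 bases before the start of Cxcl1, Cxcl2 and Cxcl3. The match of Nfkbia is on the opposite strand, 29 to 20 bases before its start.

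Motifs were counted in windows of 300 bases (250 before to 50 after the start), on either strand, for the genes with a RefSeq window, and the shares are a description with no test. The NF-kappaB consensus, added after the values were seen, was held by 29.2% of 24 promoters of the cytokine list and 27.3% of 22 of the immediate-early list, against 12.0% of 908 genes that fell, 11.3% of 1190 that rose, 10.1% of all genes tested and 8.18% of all 27025 promoters. It was held by 17.6% of 17 promoters of the endothelial list, which rose, and 9.52% of 21 of the glycolysis list, most of which fell. The AP-1 site TGAGTCA was held by 25.0% of the cytokine list and 0% of the immediate-early, glycolysis and endothelial lists. Its share was 5.95% of the genes that fell, 3.95% of those that rose, 3.98% of all genes tested and 5.17% of all promoters. The TATA box TATAAA was held by 41.7% of the cytokine list and by 13.5% of the genes that fell, 8.32% of those that rose, 8.17% of all genes tested and 14.2% of all promoters. The cAMP response element TGACGTCA was held by 3.41% of genes that fell, 2.10% of those that rose, 2.92% of all genes tested and 1.88% of all promoters. The GC box GGGCGG was held by 59.5%, 60.0%, 59.6% and 35.9% of the same groups, so that the genes called were close to all genes tested. In the 61 promoters of the mitosis list the CHR motif TTTGAA was held by 67.2% and in 46 of the replication list an E2F site (TTTCCCGC or TTTGGCGC) by 37.0%, against 12.9% and 2.84% of all genes tested and 18.1% and 1.63% of all promoters. Among all genes that rose those motifs were held by 12.0% and 2.18%.

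NF-kappaB components, immediate-early factors and Toll-like receptors fell in part, beside 7.12% of all genes that fell and 9.44% that rose. Of 16 NF-kappaB subunits and inhibitors 8 fell and 0 rose (median -1.002), and the subunit Rel and 7 inhibitors or modifiers made up the 8. Nfkbia measured 9876, 9741 and 10287 against 651, 512 and 508 CPM (log2FC -4.16 ± 0.27, adjusted p = 0.0002), with narrow spread at both times. Nfkbiz, an atypical member that coactivates secondary genes, measured 361, 422 and 397 against 26.2, 27.2 and 36.9 CPM (log2FC -3.71 ± 0.23, adjusted p = 0.0002). Tnfaip3, which encodes the inhibitor A20, measured 109.8, 183 and 247 against 13.7, 7.96 and 16.8 CPM (log2FC -3.81 ± 0.40, adjusted p = 0.000671). The subunits Rela, Relb, Nfkb1 and Nfkb2 did not pass. Of 27 immediate-early factors 19 fell, 0 rose and all 27 had a lower mean at 48 h (median -2.40). Ier3 measured 1426, 1590.2 and 1228 against 39.6, 37.1 and 27.7 CPM (log2FC -5.35 ± 0.27, adjusted p = 0.000163). Fosl1, a FOS-like partner of JUN, measured 22.4, 36.6 and 29.9 against 0.277, 0.672 and 0.0796 CPM (log2FC -6.43 ± 0.68, adjusted p = 0.000672). Nr4a2, an orphan nuclear receptor, fell from 31.9–39.5 to 1.54–3.41 CPM (log2FC -3.86 ± 0.34, adjusted p = 0.000358). None of these overlapped between the times. Of 22 Toll-like receptors and adaptors 5 fell and 1 rose. Cd14, the co-receptor of endotoxin, measured 3321, 4487 and 4245 against 123, 60.4 and 40.7 CPM (log2FC -5.75 ± 0.49, adjusted p = 0.000328). Tlr2, a receptor of bacterial lipoproteins, measured 232, 202 and 237 against 50.8, 49.3 and 37.3 CPM (log2FC -2.29 ± 0.21, adjusted p = 0.0004). Myd88, an adaptor, fell from 142–201 to 73.3–87.3 CPM (log2FC -1.05 ± 0.21, adjusted p = 0.0113). Tlr3, which senses double-stranded RNA, rose from 1.35–1.62 to 5.97–10.6 CPM (log2FC 2.39 ± 0.38, adjusted p = 0.00443).

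Most glycolysis genes and some hypoxia genes were lower at 48 h, beside 7.12% of all genes that fell and 9.44% that rose. Of 22 glycolysis genes 14 fell and 0 rose (median -1.52), and their summed level was 12871, 11888 and 12516 CPM at 24 h and 2596, 1966 and 1952 CPM at 48 h. Slc2a1, the glucose transporter GLUT1, measured 175, 175 and 178 against 12.5, 13.8 and 13.8 CPM (log2FC -3.72 ± 0.19, adjusted p = 0.000163). Eno1 (enolase) fell from 3678–3893 to 443–581 CPM, Pkm (pyruvate kinase) from 2362–2666 to 322–427 CPM, and Slc16a3, a lactate exporter, from 412–457 to 21.7–40.2 CPM (log2FC -2.95, log2FC -2.77 and log2FC -3.93). Of 20 hypoxia factors and targets 10 fell, 1 rose and 9 did not pass. Hif1a, the oxygen-regulated factor of myeloid cells, measured 133, 164 and 148 against 26.6, 26.5 and 26.1 CPM (log2FC -2.49 ± 0.19, adjusted p = 0.000228). The member that rose was Epas1, which encodes HIF2-alpha (2 rose without replicate 1 of 48 h) and is known for its level in endothelial cells, at 10.7, 9.68 and 13.4 against 72.1, 80.1 and 86.0 CPM (log2FC 2.82 ± 0.21, adjusted p = 0.000232). Hif1a and Epas1 moved in opposite directions in all 3 libraries of 48 h.

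Chaperone, secretory stress and ribosome genes fell in part, beside 7.12% of all genes. Of 21 heat-shock chaperones 11 fell and 0 rose, among them Hsp90aa1 (from 681–1086 to 166–246 CPM, log2FC -2.13 ± 0.27, adjusted p = 0.00154), and 4, 5 and 7 fell without replicates 1, 2 and 3 of 24 h. Of 24 genes of the unfolded protein response 10 fell and 0 rose, among them Hspa5, the chaperone BiP (701–1017 against 135–245 CPM), and Ppp1r15a, a phosphatase subunit that restarts translation (718–879.7 against 93.9–146 CPM). Of 44 cytosolic ribosomal protein genes 18 fell, 0 rose and all 44 had a lower mean (median -0.71). That count depended on the libraries, with 9, 8 and 6 without replicates 1, 2 and 3 of 24 h, and 28 and 10 without replicates 1 and 3 of 48 h. Many ribosomal protein genes have near-identical processed copies, so their counts are uncertain.

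Respiratory chain genes of the mitochondrial genome rose, and most of those of the nuclear genome did not pass. Over all genes 9.44% rose and 7.12% fell. Of 36 nuclear-encoded genes of oxidative phosphorylation 9 fell, 0 rose and 27 did not pass (median -0.47), among them Cycs, cytochrome c, at 685, 635 and 657 against 171, 207 and 192 CPM (log2FC -1.79 ± 0.19, adjusted p = 0.000722). Of the 13 protein genes of the mitochondrial genome 11 rose and 0 fell (median 1.91), and their summed level was 19979, 22317 and 33269 CPM at 24 h and 40132, 129073 and 84147 CPM at 48 h. mt-Cytb measured 2285, 2108 and 3001 against 5959.9, 20489.8 and 13342 CPM (log2FC 2.43 ± 0.45, adjusted p = 0.00887) and mt-Co1 4177, 4996 and 6385 against 10712, 26414 and 15011 CPM (log2FC 1.74 ± 0.39, adjusted p = 0.0188). Replicate 1 of 48 h was nearest to the 24 h libraries. The 11 calls dropped to 1, 2 and 5 without replicates 1, 2 and 3 of 24 h and to 7 without replicate 2 or 3 of 48 h. The 9 nuclear calls dropped to 2 or 3 without a library of 24 h, to 5 and 4 without replicates 2 and 3 of 48 h, and rose to 14 without its replicate 1. A high mitochondrial share is also a common sign of damaged cells, and its part in these results was not tested.

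Most genes of monocytes and of their first steps in tissue fell, beside 7.12% of all genes that fell and 9.44% that rose. Of 25 genes of monocytes and infiltrating macrophages 17 fell and 1 rose (median -1.55, 11 fell without replicate 1 of 24 h), and their summed level was 102000, 49332 and 70379 CPM at 24 h and 27869, 12517 and 16546 CPM at 48 h. Thbs1, thrombospondin-1, which activates latent TGF-beta, measured 568, 662 and 600.0 against 18.6, 7.82 and 32.3 CPM (log2FC -4.96 ± 0.51, adjusted p = 0.000629). Vcan, the matrix proteoglycan versican, fell from 83.4–121 to 2.21–6.92 CPM (log2FC -4.39 ± 0.43, adjusted p = 0.000514). F10, coagulation factor X, fell from 202–311 to 15.8–31.7 CPM (log2FC -3.46 ± 0.32, adjusted p = 0.000426). None of these overlapped between the times. Ly6c2, which marks inflammatory monocytes, measured 622, 282 and 358 against 114, 139 and 187 CPM (log2FC -1.52 ± 0.34, adjusted p = 0.0186), a call lost without replicate 1 of 24 h or replicate 1 or 2 of 48 h (adjusted p up to 0.220). Of 18 lineage factors and CSF receptors 7 fell and 1 rose. Among them, Cebpb, a C/EBP factor of myeloid cells, fell from 608–1098 to 73.5–160.3 CPM (log2FC -2.78 ± 0.38, adjusted p = 0.00203). Maf, another lineage factor, rose (80.4–139.8 against 197–253 CPM, log2FC 1.12 ± 0.25, adjusted p = 0.019). The call of Maf was lost without replicate 1 or 3 of 24 h or replicate 2 or 3 of 48 h. Ly6i, the monocyte gene that rose, lost its call without replicate 2 or 3 of either time.

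Kupffer cell genes did not move in 1 direction, and their summed level was highest in replicate 1 of 48 h and lowest in its replicate 2 (8718 and 2364 CPM). Of 23 tested, 2 rose and 2 fell, shares close to the 9.44% and 7.12% of all genes, and 19 did not pass. Clec4f, a lectin restricted to Kupffer cells in the mouse, measured 413, 373 and 444 against 2236, 253 and 699 CPM (log2FC 1.37 ± 0.65, adjusted p = 0.204), so that replicates 1 and 3 of 48 h lay above and replicate 2 below all 24 h libraries. Slc40a1, the iron exporter ferroportin, rose (51.6–62.9 against 109.8–411 CPM, log2FC 2.000 ± 0.45, adjusted p = 0.0195), as did Clec1b (41.0–62.0 against 172–305 CPM), a lectin that platelets carry too. Marco, a scavenger receptor, fell from 514–733 to 22.5–166 CPM (log2FC -3.06 ± 0.69, adjusted p = 0.0202) and Hmox1, heme oxygenase 1, from 315–481 to 34.7–149.9 CPM (log2FC -2.47 ± 0.58, adjusted p = 0.0233). The calls were 5 rising without replicate 2 of 48 h, 1 rising without any 1 library of 24 h, and 0 falling without any 1 library of 24 h or replicate 3 of 48 h (1 without its replicate 2).

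Most genes of Fc-gamma receptors and phagocytosis fell, whereas most genes of lysosomes and of iron and heme did not pass. Among all genes tested 7.12% fell and 9.44% rose. Of 16 Fc-gamma receptor and phagocytosis genes 10 fell and 2 rose. Fcer1g, the signalling chain shared by Fc receptors, measured 10848, 10196 and 9916 against 3008, 1379 and 1784 CPM (log2FC -2.33 ± 0.34, adjusted p = 0.00286). Cyba, a subunit of the NADPH oxidase, measured 5369.7, 5521 and 5463 against 1626, 973 and 1144 CPM (log2FC -2.13 ± 0.27, adjusted p = 0.00156). Those that rose were Fcgr2b (242–403 against 633–842 CPM), the inhibitory receptor that sinusoidal endothelium also carries, and Cd209a (16.6–37.7 against 71.3–139.5 CPM), a lectin of dendritic cells and monocytes (1 rose without replicate 1 or 3 of 24 h). Of 22 iron and heme genes 8 fell, 1 rose and 13 did not pass (5 fell without any 1 library of 24 h or replicate 3 of 48 h, and 0 rose without any 1 library of 24 h). Ftl1, the light chain of ferritin, measured 60143, 42799.5 and 51788 against 12135, 7729 and 8021 CPM (log2FC -2.47 ± 0.33, adjusted p = 0.00188). Fth1, the heavy chain, measured 16951, 14484 and 19735 against 3959, 2134 and 1649 CPM (log2FC -2.72 ± 0.39, adjusted p = 0.0026). None of these overlapped between the times. Both have processed copies in the genome. Of 30 lysosome genes 8 fell, 1 rose and 21 did not pass. Those that fell included the cathepsins Ctsz (from 1513–1721 to 332–669.6 CPM) and Ctss (from 2954–4123 to 697–1679 CPM, log2FC -1.59 ± 0.35, adjusted p = 0.018). Of these 30, 3, 3 and 4 fell without replicates 1, 2 and 3 of 24 h, with 4 without replicate 2 or 3 of 48 h.

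Genes of reparative and lipid-associated macrophages were split (9.44% of all genes rose and 7.12% fell). Of 24, 6 fell and 4 rose (median -0.57). Arg1, arginase 1, measured 1002, 3034 and 1983 against 92.3, 146 and 61.7 CPM (log2FC -4.33 ± 0.51, adjusted p = 0.00108). Spp1, osteopontin, measured 2745, 6188 and 4872 against 477, 424 and 539 CPM (log2FC -3.26 ± 0.35, adjusted p = 0.000693). Lgals3, galectin-3, fell from 4181–5139 to 459.6–837 CPM (log2FC -2.91 ± 0.30, adjusted p = 0.000623). The times did not overlap for any of the 3. The members that rose were Mrc1 (29.5–65.4 against 259–268 CPM), Nrp1 (27.4–38.6 against 253–295 CPM), Fabp4 and Cd36, and each of these is known in liver or other endothelium as well as in macrophages. Without replicate 3 of 48 h 2 of the 24 rose. Of 24 genes of efferocytosis and complement 8 rose and 1 fell, led by Stab2 (34.7–68.5 against 497–559.7 CPM), a scavenger receptor of sinusoidal endothelium, Gas6 (27.3–35.3 against 143–153 CPM), a bridge to dying cells, and Pros1. Without replicate 2 of 24 h 5 rose. C3ar1, the receptor of complement C3a, fell from 116–158 to 23.9–74.2 CPM (log2FC -1.59 ± 0.40, adjusted p = 0.0314), and 6 fell without replicate 1 of 48 h and 0 without any other library.

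Signals to hepatocytes were split (9.44% of all genes rose and 7.12% fell). Of 26 growth and angiocrine factors 6 rose and 6 fell. Those that fell are known products of activated myeloid cells: Il6 and Tnf, given above, Osm, Vegfa and the EGF receptor ligands Areg and Hbegf. Osm, a cytokine of the IL-6 family, ranged over 317–403 against 26.8–79.5 CPM (log2FC -2.91 ± 0.40, adjusted p = 0.00225), and Areg over 13.8–27.3 against 0–0.145 CPM. Wnt2, which drives beta-catenin signalling in hepatocytes, rose (13.98, 11.9 and 23.9 against 133, 123 and 177 CPM, log2FC 3.12 ± 0.32, adjusted p = 0.000601). Bmp2, an inducer of hepcidin, rose as well (8.09–15.8 against 84.7–156 CPM, log2FC 3.33 ± 0.34, adjusted p = 0.000623), as did its relative Bmp6 (2.66–3.53 against 21.6–28.3 CPM) and Rspo3 (13.1–16.7 against 45.8–86.2 CPM), which amplifies WNT signals. Hgf, the ligand of MET and a mitogen of hepatocytes, measured 4.94, 3.25 and 2.95 against 10.999, 8.06 and 15.3 CPM (log2FC 1.62 ± 0.37, adjusted p = 0.0198), and Tgfa was the last of the 6. The call of Hgf was lost without replicate 2 or 3 of 24 h or replicate 3 of 48 h (adjusted p up to 0.185). In mouse liver Wnt2, Bmp2, Bmp6 and Rspo3 are known products of sinusoidal endothelium, whose markers rose in the same libraries, and the part of those cells in these values was not tested. Of 23 TGF-beta genes 5 rose, among them Smad6 (4.50–6.49 against 25.5–37.1 CPM) and Tgfbr3 (2.95–3.28 against 15.7–20.3 CPM), and 3 fell, among them Tgfbi (448–689 against 47.1–82.3 CPM). Of 19 matrix metalloproteinases and inhibitors 7 fell and 2 rose. Plaur, the urokinase receptor, measured 513, 548 and 491 against 65.7, 61.4 and 57.8 CPM (log2FC -3.07 ± 0.20, adjusted p = 0.0002). Mmp19 measured 46.7, 57.9 and 42.7 against 2.44, 1.28 and 2.53 CPM (log2FC -4.56 ± 0.33, adjusted p = 0.000228) and Timp1, an inhibitor of these enzymes, 61.9, 215 and 151 against 0.784, 5.52 and 1.18 CPM (log2FC -5.84 ± 0.87, adjusted p = 0.00312). The 2 that rose, Timp3 and Adamts1, did not pass without any 1 library of 24 h or without replicate 2 or 3 of 48 h.

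Chain and peptide-loading genes of MHC class II rose, while the invariant chain gene did not pass and costimulatory ligands fell. Of 15 tested 10 rose (8 genes named H2, the regulator Ciita and the receptor gene Cd40) and 4 fell, beside 9.44% and 7.12% of all genes. The summed level of the 15 overlapped between the times, from 15337 to 21961 CPM at 24 h and from 20682 to 24065 CPM at 48 h. H2-Ab1, a class II chain, measured 2350.2, 1699 and 1883 against 6045, 5049 and 5104 CPM (log2FC 1.45 ± 0.25, adjusted p = 0.00587). Ciita, the factor that drives class II genes, measured 29.4, 16.3 and 13.2 against 87.0, 127 and 128 CPM (log2FC 2.54 ± 0.34, adjusted p = 0.00187). H2-Oa, a peptide-loading regulator of B cells, measured 7.05, 7.21 and 9.81 against 44.5, 62.1 and 48.8 CPM (log2FC 2.69 ± 0.24, adjusted p = 0.000392). The 48 h libraries were higher than all 24 h libraries for each of them. Those that fell were the costimulatory ligands Cd80 (15.5–18.2 against 1.63–6.99 CPM) and Cd86 (73.4–97.6 against 32.5–56.6 CPM), the protease Ctss and Ifi30, and 0, 1, 1 and 2 fell without replicates 1, 2 and 3 of 24 h and replicate 3 of 48 h. Cd74, the invariant chain, measured 12851, 11410.1 and 8343 against 12495, 11169.6 and 11142 CPM and did not pass (log2FC 0.09 ± 0.27, adjusted p = 0.864). B cells and dendritic cells carry class II genes too, and their markers rose in the same libraries, as given below.

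Interferon-stimulated genes went both ways (9.44% of all genes rose and 7.12% fell). Of 41 tested 9 rose and 7 fell (median 0.20), with 3 and 4 falling without replicates 1 and 2 of 24 h. Those that rose included guanylate-binding proteins and GTPases known to follow interferon-gamma, beside Cxcl9. Gbp4 ranged over 2.61–3.35 against 19.1–28.4 CPM (log2FC 2.97 ± 0.27, adjusted p = 0.000412), Gbp7 over 10.4–16.9 against 39.4–54.8 CPM and Iigp1 over 7.91–8.495 against 24.5–42.6 CPM (log2FC 2.15 ± 0.27, adjusted p = 0.00138). Gbp4 shares exon sequence with its neighbours Gbp8 and Gbp9. Ifitm3, which blocks virus entry, fell (11665–16251 against 2218–5311 CPM, log2FC -1.95 ± 0.39, adjusted p = 0.0115), as did Oas1a (198–234 against 52.4–87.5 CPM) and Cxcl10 (157–241 against 58.8–90.0 CPM, log2FC -1.39 ± 0.25, adjusted p = 0.008). Ifit1 measured 17.0, 15.3 and 14.5 against 11.3, 21.3 and 17.4 CPM and did not pass, nor did Ifitm2 (4847–5159 against 4126–6869 CPM), which shares an exon on the same strand with the predicted gene Gm45717, itself at 5011–5523 CPM at 24 h and at no count at 48 h. Of 25 JAK, STAT and SOCS genes 6 rose and 2 fell. Jak1, a kinase of interferon and IL-6 receptors, rose (87.2–92.6 against 228–255 CPM, log2FC 1.45 ± 0.18, adjusted p = 0.00124), as did the IL-6 family receptors Lifr (18.4–32.3 against 101–168 CPM) and Osmr. Socs3, an inhibitor induced by STAT3, fell (134–180.4 against 14.8–20.9 CPM, log2FC -3.26 ± 0.24, adjusted p = 0.000228), and 1 of the 25 fell without any 1 library. Stat3 measured 159, 171 and 117 against 93.4, 82.9 and 113 CPM and did not pass (adjusted p = 0.0984), nor did Jak2 or Irf1 (adjusted p = 0.947 and 0.662). Of 22 MHC class I and immunoproteasome genes 5 rose and 2 fell, but 1 to 3 rose and 1 to 3 fell when any 1 library was left out. H2-Q6 (7.65–11.8 against 34.5–48.8 CPM) belongs to a family of near-identical genes, so its count is uncertain.

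Every endothelial marker on the list rose, and its members were chosen with earlier results of these data known. All 33 markers of sinusoidal and other endothelium passed upward, beside 9.44% of all genes (median 2.97, 32 or 33 when 1 library was left out), and their summed level was 1159, 1425 and 1827 CPM at 24 h and 16104, 15771 and 15098 CPM at 48 h. Dnase1l3, a secreted DNase, measured 123, 140.2 and 252 against 6262, 4614 and 3998 CPM (log2FC 4.85 ± 0.39, adjusted p = 0.0003). Kdr, the VEGF receptor 2, measured 20.6, 26.8 and 33.3 against 336, 448 and 488 CPM (log2FC 3.98 ± 0.28, adjusted p = 0.000225). Eng, a TGF-beta co-receptor, measured 51.3, 66.4 and 82.1 against 795, 867 and 831 CPM (log2FC 3.64 ± 0.25, adjusted p = 0.000225). For all 3 the libraries of 48 h lay above those of 24 h. Robo4 (5.83–8.09 against 84.9–114 CPM) and Mmrn2 (9.27–12.4 against 101–151 CPM) moved alike. Of the 10 genes with the smallest p among the rises, 2 were on this list (Eng and Robo4), and those outside it included Cd300lg (23.5–34.9 against 318–367 CPM), Prelp (4.38–5.19 against 57.6–69.7 CPM), Slc43a3 (24.0–30.3 against 338–440.5 CPM), Exoc3l2 (5.76–7.20 against 54.9–70.7 CPM) and Gmpr (4.63–5.69 against 43.6–52.1 CPM).

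**Figure D4:**
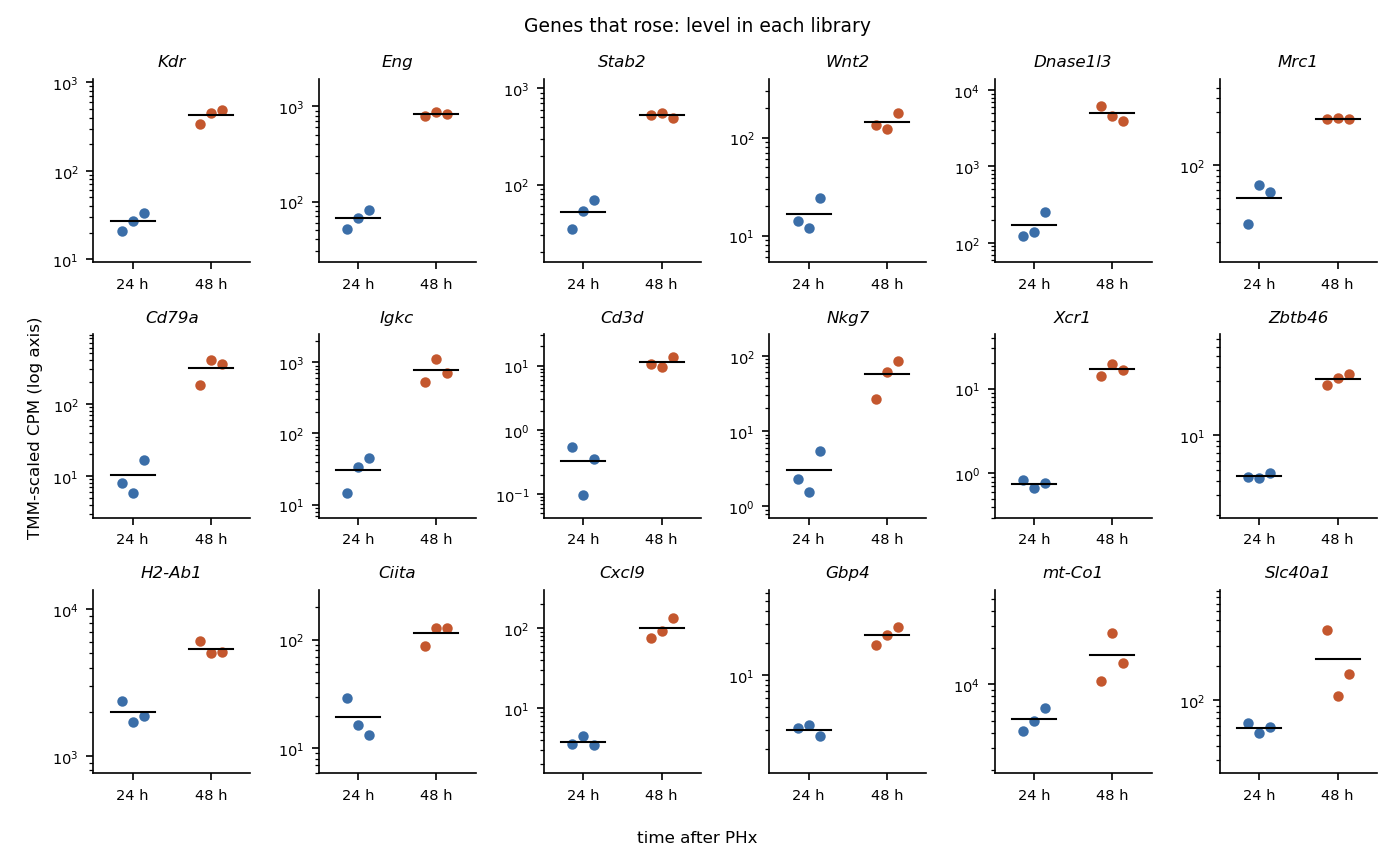
Level of 18 genes that rose, in TMM-scaled CPM on a log axis, in each of the 3 libraries at 24 h (blue) and at 48 h (red); the line is the mean. No gene shown overlaps between the times, and the 3 libraries of 48 h lie close together for Kdr (336 to 488 CPM) and spread widely for mt-Co1 (10712 to 26414 CPM).

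Many lymphocyte markers rose, from low levels, beside 9.44% of all genes that rose and 7.12% that fell. Of 25 B cell markers 19 rose, 0 fell and 6 did not pass (median 3.75), with a summed level of 149 to 206 CPM at 24 h and 902 to 1491 CPM at 48 h. Cd79a, a chain of the B cell receptor, measured 8.11, 5.90 and 16.6 against 184, 406 and 358 CPM (log2FC 4.95 ± 0.50, adjusted p = 0.000573). Ms4a1 (CD20), Fcer2a (CD23), Fcmr and Vpreb3 were among the 15 genes with the largest rises once immunoglobulin segments, T cell receptor segments and predicted genes were passed over (log2FC 4.71, log2FC 5.45, log2FC 5.28 and log2FC 5.65). Of 17 immunoglobulin and plasma cell genes 9 rose, 2 fell and 6 did not pass. Igkc, the kappa constant region, measured 14.6, 33.9 and 44.6 against 528, 1096 and 711 CPM (log2FC 4.65 ± 0.49, adjusted p = 0.000679). Jchain, which joins IgM and IgA, measured 0.541, 2.32 and 2.05 against 25.4, 77.9 and 45.5 CPM (log2FC 4.92 ± 0.64, adjusted p = 0.00161), whereas Xbp1, a factor of secretory cells, fell from 117–158 to 42.8–57.1 CPM (log2FC -1.35 ± 0.22, adjusted p = 0.0044).

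Of 24 T cell markers 11 rose, beside 9.44% of all genes, 0 fell and 13 did not pass. Without replicate 1 or 2 of 24 h 7 of these rose. Cd3d measured 0.541, 0.0951 and 0.347 against 10.4, 9.61 and 13.7 CPM (log2FC 5.09 ± 0.62, adjusted p = 0.00122). Cd3g measured 0.0965, 0.228 and 1.14 against 10.01, 11.7 and 18.0 CPM. Trac measured 0.386, 0.285 and 0.579 against 8.20, 6.62 and 14.6 CPM. None of these overlapped between the times. Of 17 markers of NK and cytotoxic cells 12 rose and 0 fell (3 and 7 without replicates 1 and 2 of 24 h, 7 without replicate 3 of 48 h). Nkg7 measured 2.30, 1.58 and 5.37 against 26.9, 61.1 and 85.5 CPM (log2FC 4.23 ± 0.59, adjusted p = 0.00235). Gzma, granzyme A, measured 0.386, 0 and 1.72 against 16.2, 26.9 and 46.7 CPM, and Klrb1c, which encodes NK1.1, 0.309, 0.228 and 1.06 against 10.6, 3.15 and 10.9 CPM. Cd160 had no count at 24 h and measured 6.02, 10.2 and 20.2 CPM at 48 h, at least 633-fold higher than the limit of 3 counts over the 24 h libraries (adjusted p = 0.000898), and it overlaps Pdzk1 on the other strand. Of 23 dendritic cell markers 12 rose and 0 fell. Xcr1, the receptor of type 1 dendritic cells, measured 0.830, 0.666 and 0.772 against 14.2, 19.5 and 16.8 CPM (log2FC 4.47 ± 0.31, adjusted p = 0.000225). Zbtb46 measured 4.34, 4.22 and 4.71 against 27.8, 31.9 and 34.2 CPM (log2FC 2.82 ± 0.22, adjusted p = 0.000273) and Dpp4 16.1, 15.6 and 20.2 against 107, 173 and 158 CPM. The T cell sum was 19.2 to 21.5 CPM at 24 h and 115, 148 and 239 CPM at 48 h, and that of dendritic cells 541 to 611 CPM and 931 to 1269 CPM. A sort for F4/80 and CD11b is meant to leave out endothelial cells, B cells and T cells. The part of endothelial, lymphoid and dendritic cells in the other changes was not tested.

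Other cell types moved less uniformly. Of 31 neutrophil genes 13 fell, among them Lrg1 (1085–1569.5 against 73.3–109 CPM, log2FC -3.89 ± 0.27, adjusted p = 0.000225) and Trem1 (106–147 against 9.998–18.6 CPM). The granule genes that rose were Camp (4.29–23.4 against 36.1–90.8 CPM), Ltf and Mpo, none of which passed without replicate 1 or 2 of 24 h (1 without replicate 2 of 48 h). The neutrophil marker Ly6g measured 2.01, 2.13 and 4.75 against 0.615, 0.0640 and 1.21 CPM (log2FC -2.23 ± 0.96, adjusted p = 0.163). Of 26 acute-phase genes of hepatocytes 12 fell and 1 rose (Lbp, a call lost without replicate 1 or 3 of 24 h). Saa3, a serum amyloid that macrophages also make, measured 1236, 2897 and 5599 against 48.9, 35.4 and 11.5 CPM (log2FC -6.67 ± 0.79, adjusted p = 0.00114). Saa1 and Saa2, near-identical genes whose reads may be shared, fell from 155–485 to 1.97–3.87 CPM and from 286–1235 to 1.16–7.62 CPM. Orm2 (3.46–4.98 against 0 CPM) had no count at 48 h, at least 281-fold lower. Of 31 metabolic and secretory genes of hepatocytes 1 rose and 1 fell (0 to 2 in each direction when 1 library was left out), and Alb measured 343, 509.6 and 642 against 492, 498 and 165 CPM (log2FC -0.37 ± 0.43, adjusted p = 0.627). Of 24 stellate cell genes 3 rose, with Sparc at 240.1, 258 and 360.4 against 1360.2, 1358 and 1198 CPM (log2FC 2.19 ± 0.24, adjusted p = 0.000783), a gene that endothelium expresses as well, and 2 fell (1 without any 1 library of 24 h, 5 without replicate 3 of 48 h). Of 11 cholangiocyte genes Tm4sf4 rose, a call lost without replicate 1 or 2 of 24 h or 1 or 3 of 48 h, and Spp1 fell. For the hepatocyte metabolic, stellate cell and cholangiocyte lists these counts were near or below the shares of all genes (9.44% rose and 7.12% fell). Of 16 genes of mesothelium and peritoneal macrophages 4 fell, among them Fn1 (604–947 against 35.8–88.4 CPM, log2FC -3.39 ± 0.40, adjusted p = 0.00106), and 1 rose. Without replicate 1 or 3 of 24 h or any 1 library of 48 h 2 of these 16 fell, and 0 rose without replicate 1 or 3 of 24 h and 2 without replicate 2 of 48 h.

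Globin genes were among the most abundant of all and overlapped between the times. Hba-a1 and Hba-a2, near-identical genes whose reads may be shared, measured 7637, 3899.9 and 24577 against 20464, 67432 and 47151 CPM and 5542, 2949 and 15892 against 15637, 45307 and 31433 CPM (adjusted p = 0.111 and 0.084). Of 16 erythroid genes 3 rose and 0 fell, Alas2 (10.9–45.1 against 47.7–595 CPM), Bpgm and Epor, and the count ran from 1 (without replicate 1 or 2 of 24 h, or 2 or 3 of 48 h) to 5 and 7 (without replicate 3 of 24 h and replicate 1 of 48 h). Of 17 platelet genes 6 rose and 2 fell, beside 9.44% and 7.12% of all genes. The platelet chemokines Pf4 (481–1138 against 42.8–124 CPM) and Ppbp (62.5–115 against 5.99–8.93 CPM), which monocytes also express, fell (log2FC -3.67 ± 0.54, adjusted p = 0.00303 and log2FC -3.58 ± 0.31, adjusted p = 0.000332). Vwf, shared with endothelium, rose (9.42–13.2 against 34.97–61.9 CPM). Without any 1 library of 24 h, or replicate 2 of 48 h, 3 of these 17 rose. Of 11 genes of basophils, mast cells and eosinophils 3 rose, Gata2, Kit and Il5ra, which had no count at 24 h (0 against 1.15–3.60 CPM), and Siglecf fell and had no count at 48 h (0.425–1.00 against 0 CPM). Without any 1 library of 24 h 0 of these 11 fell, and without replicate 1 of 48 h 3 fell.

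Cell division genes rose in part and from low levels, beside 9.44% of all genes that rose and 7.12% that fell. Of 55 G1/S and replication genes 12 rose and 0 fell (median 0.71), among them Dut (4.38–5.41 against 13.8–27.3 CPM, log2FC 2.12 ± 0.31, adjusted p = 0.00307) and also Pold1 (3.88–5.37 against 11.4–21.6 CPM) and Mcm6 (7.93–9.27 against 15.3–25.6 CPM). Of 72 mitosis genes 15 rose and 0 fell (median 1.503), among them Cenpa (7.26–7.97 against 14.97–24.5 CPM, log2FC 1.43 ± 0.26, adjusted p = 0.00844), then Cit (1.56–2.12 against 7.24–9.04 CPM), Cdca3 and Ndc80. Mki67, the proliferation marker Ki-67, was not among them, at 6.80, 11.7 and 7.97 against 3.34, 4.75 and 3.90 CPM (log2FC -1.14 ± 0.34, adjusted p = 0.056). These counts rested on the libraries: 4, 2 and 2 replication genes and 3, 2 and 2 mitosis genes rose without replicates 1, 2 and 3 of 24 h, and 23, 7 and 7 mitosis genes without replicates 1, 2 and 3 of 48 h. Over all genes 1754 rose, and 897, 938 and 990 without replicates 1, 2 and 3 of 24 h. The replication and mitosis lists thus lost a larger share of their calls than all genes did. Of 18 histone genes 3 rose and 0 fell (1 rose without replicate 3 of 24 h). Of 25 CDK inhibitors, D cyclins and p53 targets 5 fell and 3 rose, the rises near the share of all genes. Cdkn1a, the CDK inhibitor p21, measured 2021, 2927 and 1858 against 119.8, 118 and 133 CPM (log2FC -4.20 ± 0.28, adjusted p = 0.0002). Bax fell from 362–426 to 165–188 CPM (log2FC -1.16 ± 0.19, adjusted p = 0.00451). Cdkn1c (p57), known in endothelium, rose (2.24–4.40 against 37.8–46.1 CPM, log2FC 3.71 ± 0.31, adjusted p = 0.000321), as did Ccnd1, cyclin D1 (28.5–50.7 against 75.2–104.9 CPM, log2FC 1.20 ± 0.26, adjusted p = 0.0166), a call lost without replicate 2 or 3 of either time (adjusted p up to 0.504). Without replicate 2 of 48 h 8 of the 25 fell, and without replicate 3 of 24 h 1 rose. Which cells carried the cell division genes was not tested.

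Most enzymes that write and erase DNA methylation and histone acetylation did not pass. Of 25 genes on this list 2 rose and 2 fell (median 0.04), shares near those of all genes (1 rose without any 1 library of 24 h or replicate 1 of 48 h). Tet2, a methylcytosine dioxygenase that the study followed in macrophages, measured 21.4, 35.7 and 19.0 against 12.9, 23.5 and 12.6 CPM (log2FC -0.64 ± 0.35, adjusted p = 0.266), with overlap between the times. Tet3 measured 25.1, 30.8 and 20.9 against 14.8, 25.2 and 26.7 CPM (adjusted p = 0.692) and Tet1 0.444, 0.228 and 0.521 against 0.193, 0 and 0.0637 CPM (adjusted p = 0.347). Hdac1, a histone deacetylase, was higher at 48 h (74.4–77.2 against 112–119 CPM, log2FC 0.61 ± 0.17, adjusted p = 0.0409), but lost its call when any 1 library was left out and with other scalings (adjusted p up to 0.999987). Hdac2 measured 16.5, 20.1 and 17.4 against 22.7, 24.2 and 28.3 CPM (adjusted p = 0.162). Hdac7, another deacetylase, rose (4.34–5.56 against 19.7–31.4 CPM). The 2 members that fell write or erase neither mark: Kdm6b is a histone demethylase (72.5–106 against 11.5–28.2 CPM, log2FC -2.09 ± 0.34, adjusted p = 0.00489) and Acod1 makes itaconate (96.3–143 against 7.16–15.7 CPM, log2FC -3.41 ± 0.34, adjusted p = 0.000521). Of 27 cholesterol genes 2 rose, Mylip and Abcg1 (64.1–85.8 against 141–175 CPM, log2FC 1.04 ± 0.20, adjusted p = 0.0109), and 4 fell, among them Mvd. These counts were unsteady (1 or 2 fell without any 1 library of 24 h, 2 without replicate 3 of 48 h; 1 rose without replicate 2 or 3 of 24 h). Of 26 fatty acid genes 2 fell, the lipid droplet genes Plin2 (585–678 against 190.2–234 CPM, log2FC -1.54 ± 0.20, adjusted p = 0.00158) and Hilpda (102–218 against 9.55–16.6 CPM), and 1 rose (Thrsp). Of these 26, 4 fell without replicate 2 of 48 h. Over all genes 7.12% fell and 9.44% rose. The counts of the fatty acid list, and the rises of the cholesterol list, were near or below these shares.

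Among the remaining genes with the largest or the best-separated changes, Tnfsf9, the ligand of the T cell receptor 4-1BB, had the smallest p of the falls at 253, 304 and 277 against 5.17, 3.29 and 3.77 CPM (log2FC -6.09 ± 0.28, adjusted p = 0.000123). Basp1 measured 426, 467 and 515 against 31.7, 26.9 and 30.3 CPM (log2FC -3.98 ± 0.21, adjusted p = 0.000168). Tarm1, an activating receptor of myeloid cells, measured 52.0, 64.1 and 54.3 against 6.31, 6.56 and 5.80 CPM (log2FC -3.19 ± 0.20, adjusted p = 0.0002). Lilr4b, an inhibitory receptor, measured 293, 361 and 295 against 26.5, 29.6 and 30.1 CPM (log2FC -3.46 ± 0.21, adjusted p = 0.0002). None of these overlapped between the times, which the rule that named them required. Lilr4b overlaps Gm49339 on the same strand, so its count is uncertain. Gsta1, a glutathione transferase, measured 34.0, 1.96 and 2.72 against 0.0482, 0 and 0.0637 CPM and was highest in replicate 1 of 24 h, without which its call was lost, as it was with DESeq2 and limma. Of the rises, Gpr141b measured 0.521, 0.342 and 0.386 against 14.7, 20.9 and 15.8 CPM (log2FC 5.36 ± 0.35, adjusted p = 0.0002). Ptprcap measured 0.541, 0.171 and 0.734 against 14.002, 40.2 and 33.6 CPM, with its exons overlapped on the same strand by Coro1b, 8.17 times as abundant, and Cyp2d22 4.46, 3.92 and 4.77 against 39.2, 45.1 and 41.6 CPM. The cytoskeletal genes Actb (24631–42007 against 5057–16241 CPM, log2FC -1.86 ± 0.52, adjusted p = 0.043) and Tmsb4x (23798–28698 against 8162–12219 CPM, log2FC -1.43 ± 0.28, adjusted p = 0.012) and Lyz2 and Ftl1 were the genes among the 10 most abundant that fell, mt-Co1 and mt-Rnr2 those that rose, and Cd74 and 3 globin genes those that did not pass. The call of Actb was lost without any 1 library but replicate 1 of 48 h (adjusted p up to 0.225), and that of mt-Rnr2 without any 1 library of 24 h or replicate 3 of 48 h. Of the 283 genes selected by rule for naming, 54 overlap an exon of another expressed gene by at least 10 bases, and for 17 of these a partner on the other strand reached at least 10% of the gene's own level, among them Bmp6 (Txndc5), Ciita (Dexi), Fosl1 (Ccdc85b), Irf1, Myd88 (Acaa1a) and Hspe1 (Hspd1). The sources used here do not give the strand setting of the counting, so reads of such a gene and of its partner cannot be told apart.

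**Figure D5:**
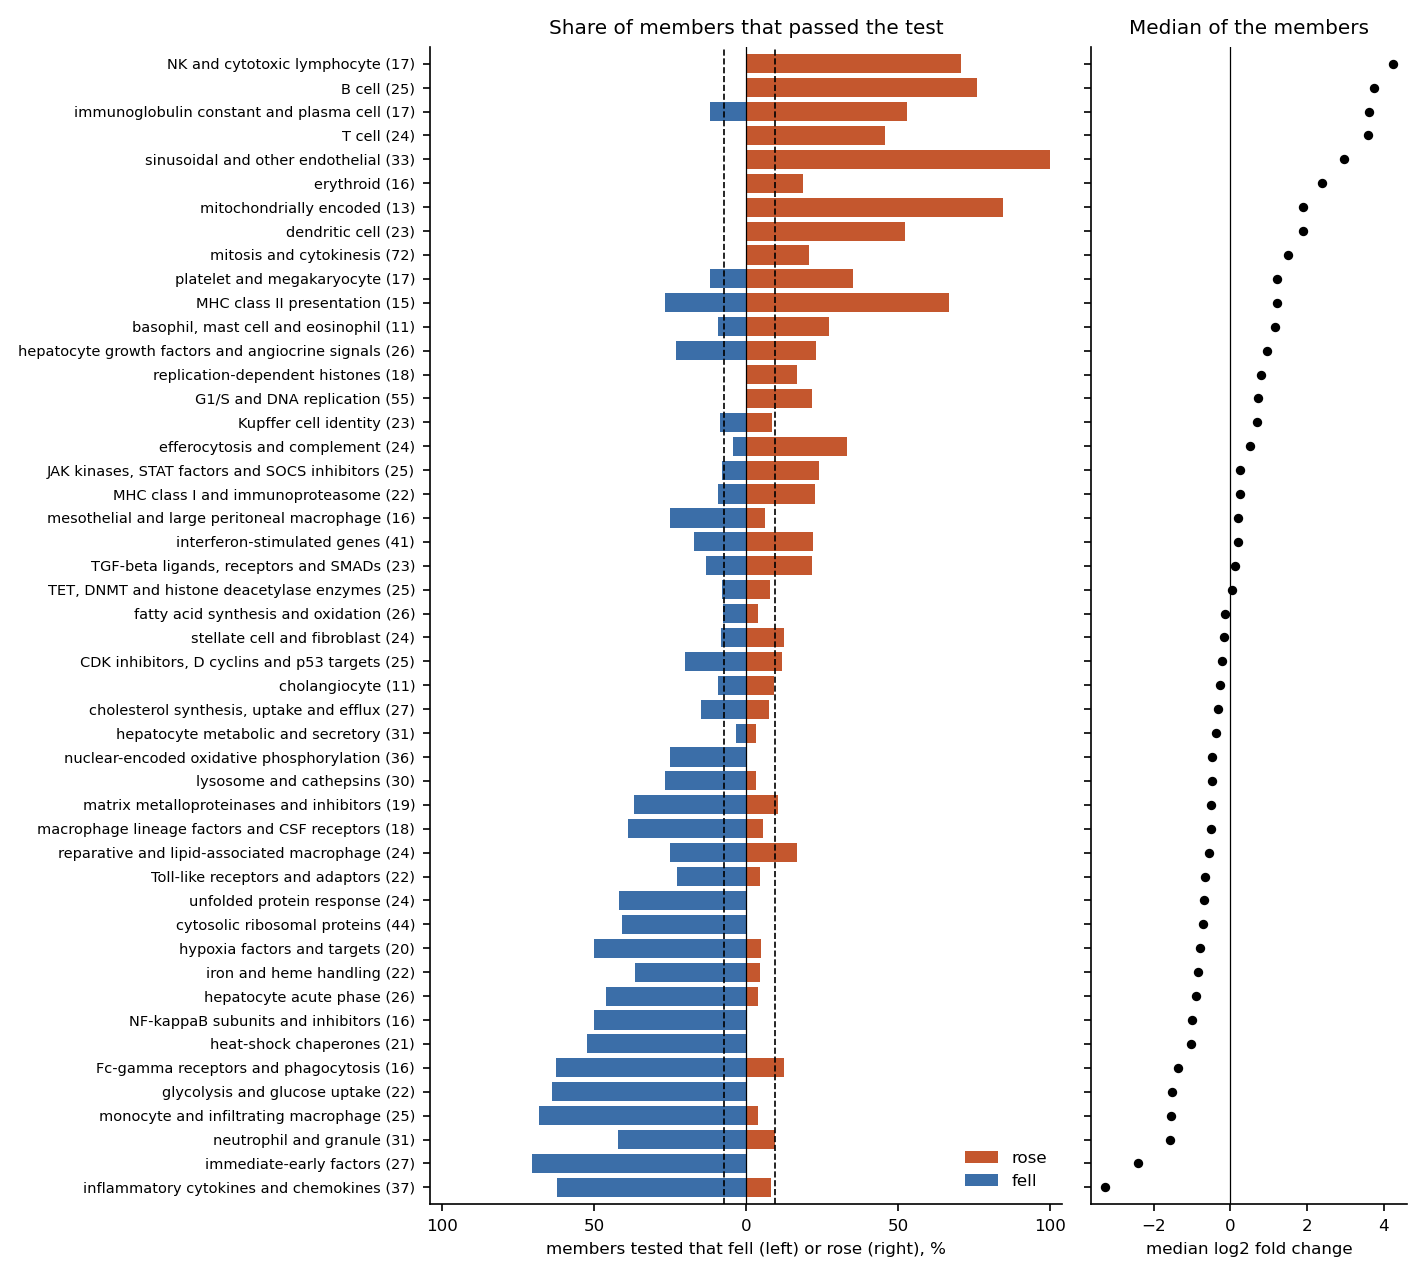
Each row is 1 of the 48 gene lists, with the number of members tested in brackets; the left panel gives the share of tested members that rose (red, to the right) or fell (blue, to the left), with dashed lines at 9.44% and 7.12%, the shares over all genes, and the right panel the median log2 fold change of the members. Lymphocyte and endothelial lists lie at the top and cytokines and immediate-early factors at the bottom.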

How the data were processed

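RNA of macrophages sorted by F4/80 and CD11b was sequenced as strand-marked paired-end libraries. Per the authors' processing notes, reads were called with CASAVA 1.8, aligned with HISAT2 2.0.5 and counted per gene with featureCounts 1.5.0-p3. The sources used here do not give the genome build, the annotation or the strand setting, nor whether these were the same for every library. The deposited table holds values treated as estimated counts: they are whole numbers, but 40.9% to 47.6% of the values from 4 to 40 are multiples of 4 in each of these libraries, and the cause was not tested. They were used as deposited. Of 9 libraries, the 6 of 24 h and 48 h entered the comparison, with totals of 53297943 to 67951168; the 3 of 0 h are set beside them in the closing observations. A symbol was found for 52073 of 56691 gene IDs.

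Counts were tested with edgeR 4.0.16 in R 4.3.3 (TMM scaling, filterByExpr with a minimum count of 10, quasi-likelihood F test, Benjamini-Hochberg adjusted p under 0.05), and every adjusted p in the text is from this fit. The SE is the absolute log2 fold change over the square root of F. CPM is scaled by TMM factors. Single values per library were compared by two-sided exact permutation tests, whose smallest p is 0.1. Lists are given by counts and medians with no test. Fitted fold changes of genes with no count at 1 time depend on the prior count, and a bound is computed from 3 counts over that group. The alternatives were DESeq2 1.42.0, limma 3.58.1, other scalings, filters and a fold minimum, counts divided by 4, thinning, a fit of all 9 libraries, a replicate block and leaving out each library. The text names the 15 largest changes and the 10 smallest p in each direction among genes with at least 10 CPM and no overlap (immunoglobulin and T cell receptor segments and predicted genes were passed over, 20 among the rises and 3 among the falls), up to 4 members of each list in each direction, genes the study names, the 10 most abundant genes and macrophage markers; other names (Csf1r, Spi1 and the list members given without statistics, Ifitm2 and the genes of the closing observations) were chosen after their values were seen. Some genes that these rules name are not reported here. The members and lists were chosen with earlier results of these data known. Promoters are the first RefSeq window per gene (GRCm38.p6), found for 1190 of 1754 genes that rose and 908 of 1322 that fell, and exon overlaps are from GENCODE vM21. Scripts were tested on simulated data.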

Additional observations from a re-analysis of the deposited data

How the results depend on the processing

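Under 21 other settings no direction reversed for a named gene with a call in the main fit or in the other setting. Some named genes with a call in neither changed sign, for example 2 with upper-quartile scaling and 3 without replicate 3 of 48 h. The median of the Kupffer cell list ran from -0.27 to 0.95 without 1 library. Of 260 named genes with a call, 97 lost it in at least 1 setting, 67 of them without 1 library, and 22 under settings other than a fold minimum, the block or a left-out library. Genes higher at 48 h numbered 1754, and 715 when the test required a log2 fold change of at least 1. Genes lower numbered 1322, and 411 with that minimum and 2017 with DESeq2 (2423 higher). Without 1 library 897 to 1711 genes were higher and 654 to 1549 lower, the lowest counts without a library of 24 h. With the replicate block 1167 genes were higher and 885 lower. Deviations of libraries with the same number correlated by 0.018, -0.016 and -0.024, so that no effect shared by number was seen. With 3 libraries at each time this cannot settle whether libraries of the same number were handled together. Leaving out cell type markers and mitochondrially encoded genes before scaling, chosen after the data were seen, gave 1488 higher and 1387 lower. The share of calls that were higher ran from 48.3% (upper-quartile scaling) to 63.5% (fold minimum), against 57.0%, and upper-quartile scaling moved the median of all genes by -0.127, so that small changes depend on the scaling. With 3 libraries at each time, and a wider spread at 48 h, a gene that did not pass is not shown to be level.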

Other observations

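Families that no list held were described after their values were seen. All 9 tested Gimap genes, GTPases of lymphocyte survival that endothelium also expresses, rose (median log2 fold change 3.34, from 2.27 to 5.37). Their summed level was 48.04, 56.3 and 64.9 CPM at 24 h and 417, 678 and 722 CPM at 48 h. Members of this family resemble each other, so reads may be shared. Of 68 kappa variable segments 56 rose and 0 fell, and 9 had no count at 24 h. Of 43 heavy chain variable segments 28 rose and 0 fell, and 15 had no count at 24 h. Segments with no count at 24 h passed the low-count filter through the 48 h libraries alone, so they could not fall. Over all genes tested 9.44% rose and 7.12% fell. The kappa segments summed to 13.1, 23.4 and 34.8 CPM at 24 h and 307, 814 and 549 CPM at 48 h, and replicate 2 of 48 h was highest here as in Igkc.

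Gm45717, a predicted gene that shares an exon on the same strand with Ifitm2, measured 5011, 5523 and 5393 CPM at 24 h and had no count in any library of 48 h. Ifitm2 by itself measured 4847, 5104 and 5159 CPM against 6869, 4126 and 4494 CPM and did not pass (adjusted p = 0.951, edgeR). The sum of both was 9858, 10627 and 10552 CPM at 24 h and 6869, 4126 and 4494 CPM at 48 h, a ratio of 0.499. Among the genes with no count at 1 time Gm45717 stood alone in level, and the next by its mean at the other time, Igkv8-19, was at 12.9 CPM. Gm49368, which shares an exon on the same strand with Itgam, fell too, without being at 0 in every 48 h library. Its higher mean was 1.089 times that of Itgam. Their sum was 147 to 207 CPM at 24 h and 11.8 to 21.6 CPM at 48 h, close to Itgam alone at 48 h. Whether the reads of 1 gene of such a pair were assigned to the other, or whether the libraries of the 2 times were counted with the same annotation and settings, was not tested, and the second would bear on every gene compared.

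The libraries of 0 h, scaled together with the other 6, show where the 2 later times lay beside the start. They share no test with the comparison, and the values are set side by side. Most named genes were picked for their change between 24 h and 48 h. The counts below reuse the same 24 h and 48 h values, so they are partly set by that choice. The share over all genes was not computed. Of 131 named genes that fell, 127 had all 48 h libraries below all of 0 h. All 24 h libraries lay above all of 0 h for 54 of these 131 and below for 2. Of 129 named genes that rose, 118 had all 48 h libraries above all of 0 h and 2 below. All 24 h libraries lay above all of 0 h for 34 of these 129 and below for 10. The 4 genes that follow were chosen after their values were seen. Cxcl2 measured 6822, 4447 and 3401 CPM at 0 h, 9934 to 14799 CPM at 24 h and 72.0 to 166 CPM at 48 h. Nfkbia measured 5722, 3741 and 2871 CPM at 0 h, 9470.0 to 9949 CPM at 24 h and 485 to 604 CPM at 48 h. Kdr measured 15.8, 14.3 and 16.1 CPM at 0 h and 312 to 466 CPM at 48 h. Lyz2 measured 79003, 73535 and 61916 CPM at 0 h and 9566 to 22331 CPM at 48 h.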
